A study of Homo sapiens with 3 samples.

Results

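The vacuolar H+-ATPase (V-ATPase) genes and the genes of acid-secreting intercalated cells were followed across parental MM468 cells and 2 drug-resistant derivatives. The members were chosen by gene symbol. All 37 listed symbols were found among the 46427 genes of the deposited table, 25 of them V-ATPase subunits or accessory genes and 12 of them genes of intercalated cells and ionocytes. The list was drawn up with results of these same libraries known, among them the low counts of ATP6V1B1, ATP6V0A4, ATP6V0D2, FOXI1 and TFCP2L1 in 1 resistant line, so the values of the members are a description and carry no test.

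MM468 is MDA-MB-468, an epithelial cell line established from triple-negative breast cancer. Parental cells were wild type and untreated. Adriamycin-resistant cells were survivors of long exposure to adriamycin at 10 to 140 nmol/L, and paclitaxel-resistant cells of exposure to paclitaxel at 2 to 320 nmol/L. Neither resistant line is described as a single clone, and whether drug was present at harvest is not stated. Each line was sequenced as 1 library, so no difference between lines has a replicate check, and the spread between cultures is unknown. Both resistant lines are compared with the same parental library.

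The V-ATPase is a rotary pump that uses ATP to move protons across membranes. Its V1 sector hydrolyses ATP in the cytosol and its V0 sector carries protons through the membrane. In most cells it acidifies lysosomes, endosomes and the Golgi apparatus with subunits that every cell makes. Several subunits have second isoforms, and intercalated cells of the kidney collecting duct use the B1, a4 and d2 isoforms to place the pump in the plasma membrane and secrete acid. The forkhead factor FOXI1 drives that set of genes in intercalated cells, in the inner ear and in ionocytes of the airway, and TFCP2L1 acts beside it in the collecting duct.

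The counts summed to 32704885 in parental MM468, 47567927 in adriamycin-resistant and 43242628 in paclitaxel-resistant cells, and a level of 3 counts corresponded to 0.0917, 0.0631 and 0.0694 CPM. The epithelial markers KRT8, at 2032 to 2436 TPM, and EGFR, at 1152 to 1288 TPM, were abundant in every library, where TPM is the deposited level per transcript length. Of the 7 epithelial markers, KRT7 was 2.25-fold and KRT19 1.97-fold lower in paclitaxel-resistant than in parental cells, at 965 and 1438 TPM. Of 8 leukocyte and stromal markers, 3 had 0 counts in each library (not the same 3 in every library), and the summed level of the 8 was 16.4 TPM in parental, 27.4 in adriamycin-resistant and 10.35 in paclitaxel-resistant cells, whose part in the results was not tested. ABCB1, the multidrug efflux transporter and not a member, had 10 counts in parental, 8374 in adriamycin-resistant and 8171 in paclitaxel-resistant cells. In bulk RNA, fewer cells that express a gene and less RNA per cell cannot be told apart.

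The B1, a4 and d2 isoforms were abundant in parental MM468 cells and lower in both resistant lines, and lowest in paclitaxel-resistant cells. ATP6V1B1, the kidney and inner ear isoform of subunit B of the catalytic head, was at 269 TPM in parental, 65.2 in adriamycin-resistant and 4.92 in paclitaxel-resistant cells. Of the 25 V-ATPase genes it ranked 3 by TPM in parental cells, 11 in adriamycin-resistant cells and 20 in paclitaxel-resistant cells. ATP6V0A4, the kidney isoform of the proton-conducting subunit a, was at 96.2, 15.5 and 2.29 TPM in the same order of lines. ATP6V0D2, the isoform of subunit d found in kidney and osteoclasts, was at 78.1, 9.16 and 1.27 TPM. All 3 genes kept the same order of lines, with parental cells highest and paclitaxel-resistant cells lowest.

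Fold changes were taken on the counts, scaled by TMM over the 2 libraries compared, with exact 95% intervals that cover counting error only. ATP6V1B1 had 7591 counts in parental, 2803 in adriamycin-resistant and 171 in paclitaxel-resistant cells. It was 3.99-fold lower in adriamycin-resistant cells (95% interval 3.82 to 4.16) and 68.6-fold lower in paclitaxel-resistant cells (59.0 to 80.4) than in parental cells. ATP6V0A4, with 4417, 1081 and 146 counts, was 6.01-fold lower in adriamycin-resistant cells (5.63 to 6.43) and 46.8-fold lower in paclitaxel-resistant cells (39.7 to 55.6). ATP6V0D2, with 2738, 489 and 55 counts, was 8.24-fold lower in adriamycin-resistant cells (7.48 to 9.09) and 76.8-fold lower in paclitaxel-resistant cells (59.0 to 102.5). Counting error is far smaller than these differences. Of the 17417 genes with more than 3 counts in both paclitaxel-resistant cells and parental cells, 12 had a lower log2 fold change than ATP6V0D2, 16 a lower one than ATP6V1B1 and 26 a lower one than ATP6V0A4. Of the 17070 such genes in adriamycin-resistant cells and parental cells, 121, 483 and 217 lay below the same genes. These genes were listed with their low counts in a resistant line known, so their ranks are a description and carry no test. Genes at 3 counts or fewer in either library, which can lie lower still, are not ranked.

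The other 4 tissue-restricted subunits were far less abundant, and only some had the same order of lines. ATP6V1C2, the kidney and lung isoform of stator subunit C, had 571 counts in parental, 582 in adriamycin-resistant and 191 in paclitaxel-resistant cells, which is 1.44-fold lower in adriamycin-resistant cells and 4.62-fold lower in paclitaxel-resistant cells (3.92 to 5.48) after scaling. ATP6V1E2, the testis isoform of stalk subunit E, had 328, 576 and 479 counts, which is 1.19-fold higher in adriamycin-resistant cells and 1.06-fold lower in paclitaxel-resistant cells, the latter with an interval that includes no difference. ATP6V1G2, the brain isoform of stalk subunit G, had 14, 38 and 33 counts and overlaps a readthrough gene, ATP6V1G2-DDX39B, that had 121, 155 and 178 counts. ATP6V1G3, the kidney isoform of subunit G, had 5 counts in parental cells and 0 in both resistant lines, each of which allows up to 3 counts. It did not pass the minimum of 10 counts in 1 of the 2 libraries compared.

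Of the 7 tissue-restricted subunits, 6 passed that minimum. In adriamycin-resistant cells, 3 of the 6 lay at least 2-fold below parental cells and 0 above. Of all 17950 genes compared there, 11.4% lay below, 10.9% above and 22.3% on either side. In paclitaxel-resistant cells, 4 of the 6 lay below and 0 above. Of 19099 genes compared there, 13.5% lay below, 20.5% above and 34.0% on either side. Their median log2 fold change was -1.26 in adriamycin-resistant cells and -3.88 in paclitaxel-resistant cells, where all genes had medians of 0.02 and 0.07. These contrasts chose the members, and nothing is read from the counts.

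**Figure D1:**
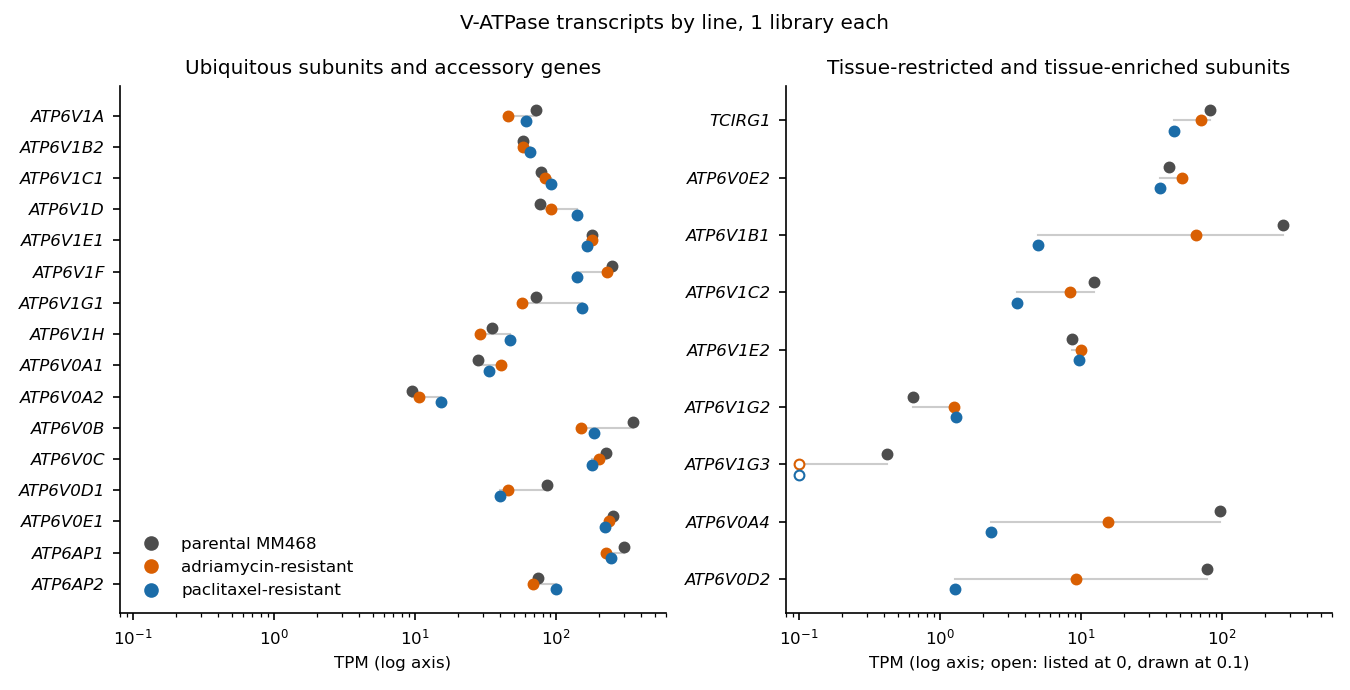
Each row is 1 V-ATPase gene and each point 1 library, with the deposited TPM on a log axis (parental MM468 grey, adriamycin-resistant cells orange, paclitaxel-resistant cells blue). The ubiquitous genes on the left stay within a narrow range, whereas ATP6V1B1 spans 269 to 4.92 TPM, ATP6V0A4 96.2 to 2.29 and ATP6V0D2 78.1 to 1.27.

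The share of each isoform within its subunit differed between the lines. Of the summed TPM of the B isoforms, ATP6V1B1 made 82.3% in parental, 52.9% in adriamycin-resistant and 7.04% in paclitaxel-resistant cells, and the ubiquitous ATP6V1B2 made the remainder. ATP6V0A4 made 44.7%, 11.3% and 2.38% of the 4 a isoforms, and was the most abundant of them in parental cells. TCIRG1, which encodes the a3 isoform of osteoclasts and lysosomes, was the most abundant a isoform in both resistant lines, at 51.3% in adriamycin-resistant cells and 47.1% in paclitaxel-resistant cells. ATP6V0D2 made 47.6%, 16.8% and 3.09% of the d isoforms, and ATP6V1C2 13.6%, 9.14% and 3.68% of the C isoforms. Without the correction for length, ATP6V1B1 made 74.9%, 41.4% and 4.24% of the counts of its pair, the same order of lines.

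The ubiquitous isoforms were not higher by an amount that would keep the sums level. ATP6V1B2 was at 57.9 TPM in parental, 58.1 in adriamycin-resistant and 64.9 in paclitaxel-resistant cells, and the summed TPM of both B isoforms went from 326 to 123 and 69.8. The parental sum was 2.65 times that of adriamycin-resistant cells and 4.67 times that of paclitaxel-resistant cells. ATP6V0D1, the ubiquitous d isoform, was itself lower, at 86.1, 45.3 and 39.8 TPM, and the sum of both d isoforms went from 164 to 54.4 and 41.1 TPM. For subunit a the sums were 215, 137 and 96.5 TPM. For subunit C, whose restricted isoform was a minor part, they were 90.4, 91.7 and 95.5 TPM. The TPM sums of subunits E and e differed little, at 187, 189 and 176 for E and 294, 290 and 257 for e. These are deposited TPM. By TMM-scaled counts, ATP6V1E1, ATP6V0E1 and ATP6V0E2 were 1.35-fold, 1.43-fold and 1.46-fold lower in paclitaxel-resistant than in parental cells. Subunit G, nearly all of it ATP6V1G1, had sums of 72.5, 58.1 and 153 TPM, highest in paclitaxel-resistant cells.

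**Figure D2:**
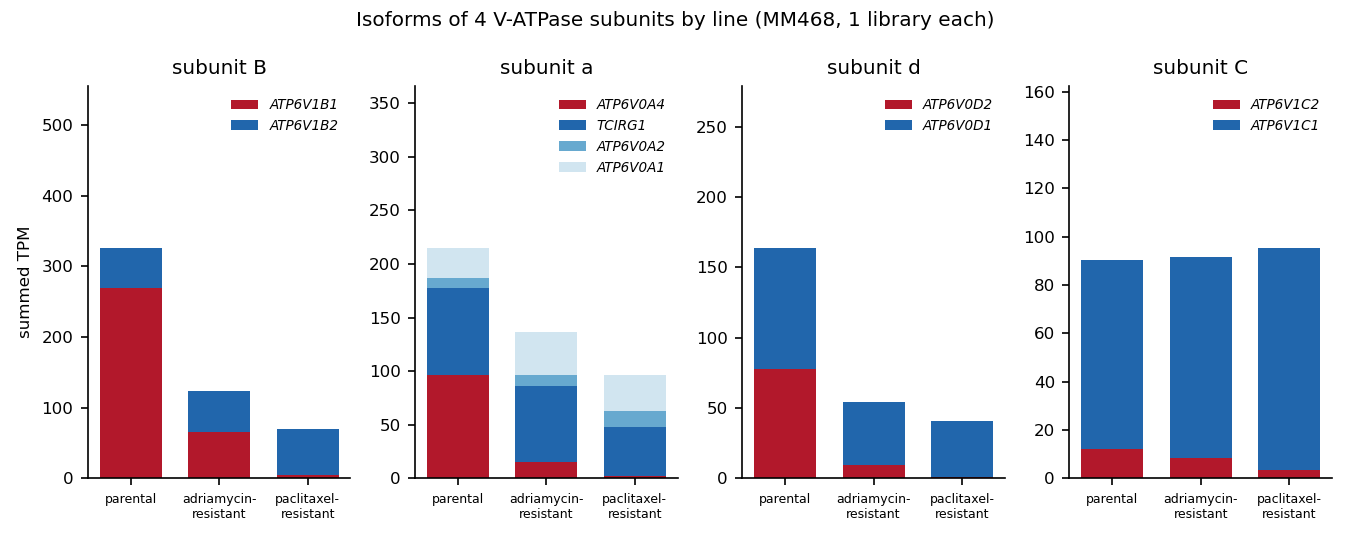
Stacked bars give the deposited TPM of the isoforms of subunits B, a, d and C in each line, with the tissue-restricted isoform in red at the base and the axis starting at 0 (1 library per bar). The red part and the height of the bar are both smaller in the resistant lines for B, a and d, with a B sum of 326 in parental and 69.8 in paclitaxel-resistant cells, whereas the C bars are level at 90.4 to 95.5.

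The 16 ubiquitous genes, 8 of V1, 6 of V0 and 2 accessory, all passed the minimum, and most lay within 2-fold of parental cells. In adriamycin-resistant cells, 1 lay at least 2-fold below parental cells and 0 above, where 11.4% of all genes lay below and 10.9% above, and the median log2 fold change was -0.07. In paclitaxel-resistant cells, 0 were higher and 3 lower, with a median of -0.26 by TMM, which was -0.04 with library size only and 0.03 from log2(TPM + 1). There 13.5% of all genes lay below and 20.5% above, so the share of ubiquitous genes below was near that of all genes. Scaling by library size only moved the median of all genes in paclitaxel-resistant cells from 0.07 to 0.30, so differences of this size have no settled direction. The 2-fold calls of ATP6V0B, ATP6V1F and TCIRG1 in paclitaxel-resistant cells rest on the scaling too, and with library size only their log2 fold changes were -0.90, -0.93 and -0.85.

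Among the V1 subunits, ATP6V1A, which carries the catalytic site, was at 71.8 TPM in parental, 45.6 in adriamycin-resistant and 61.0 in paclitaxel-resistant cells. It was 1.52-fold lower in adriamycin-resistant cells and 1.48-fold lower in paclitaxel-resistant cells, and lower under each scaling tried. ATP6V1F, a subunit of the central rotor, had 2498, 3529 and 1735 counts and was 2.23-fold lower in paclitaxel-resistant cells (2.09 to 2.37), while adriamycin-resistant cells was within counting error of parental cells. ATP6V1G1, the ubiquitous stalk subunit G, had 1651, 2000 and 4326 counts and was 1.69-fold higher in paclitaxel-resistant cells (1.60 to 1.79) and 1.22-fold lower in adriamycin-resistant cells. ATP6V1D, also of the rotor, was 1.24-fold higher in adriamycin-resistant cells and 1.45-fold higher in paclitaxel-resistant cells. ATP6V1B2, ATP6V1C1, ATP6V1E1 and ATP6V1H lay between 1.35-fold lower and 1.10-fold higher in both lines.

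The V0 sector held the larger differences. ATP6V0B, a proteolipid of the membrane ring and the most abundant V-ATPase transcript of parental cells, was at 348 TPM in parental, 149 in adriamycin-resistant and 185 in paclitaxel-resistant cells. It was 2.23-fold lower in adriamycin-resistant cells (2.13 to 2.33) and 2.19-fold lower in paclitaxel-resistant cells (2.10 to 2.28). ATP6V0D1, which couples the rotor to that ring, had 2083, 1668 and 1188 counts, 1.84-fold lower in adriamycin-resistant cells and 2.71-fold lower in paclitaxel-resistant cells (2.53 to 2.92). ATP6V0C, the other ring proteolipid, was 1.09-fold lower in adriamycin-resistant cells and 1.58-fold lower in paclitaxel-resistant cells. ATP6V0A1 was 1.50-fold higher in adriamycin-resistant cells, and ATP6V0A2 was 1.15-fold and 1.28-fold higher. ATP6V0E1 had 5274, 7610 and 5714 counts, 1.02-fold and 1.43-fold lower. Of the tissue-enriched pair, TCIRG1 had 3930, 5200 and 2888 counts and was 2.11-fold lower in paclitaxel-resistant cells, and ATP6V0E2 had 1709, 3191 and 1814 counts and was 1.46-fold lower there. ATP6V0E2 is overlapped by an antisense gene, ATP6V0E2-AS1, with 51, 141 and 384 counts, and whether the counting used strand is not stated.

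The accessory genes differed less. ATP6AP1, which assists assembly and sorting of the pump, was at 304 TPM in parental, 226 in adriamycin-resistant and 242 in paclitaxel-resistant cells, 1.30-fold and 1.57-fold lower. ATP6AP2, known as the prorenin receptor, was within 1.07-fold of parental cells in both lines. Over all 16 ubiquitous genes the summed level was 2144 TPM in parental, 1752 in adriamycin-resistant and 1879 in paclitaxel-resistant cells, whereas that of the 7 restricted subunits was 465, 109.5 and 22.9 TPM.

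**Figure D3:**
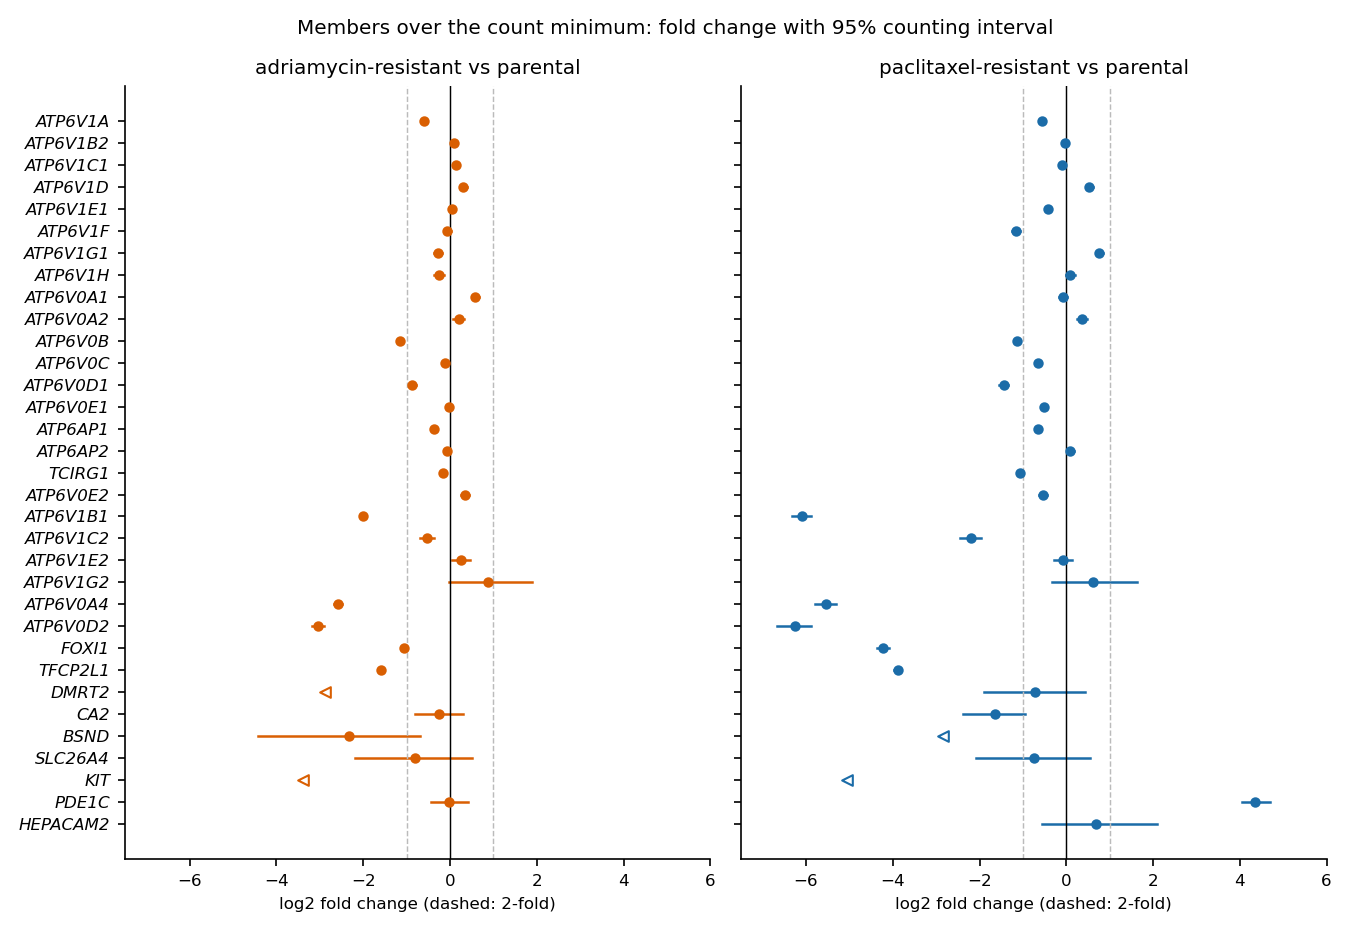
Log2 fold changes against parental MM468 for the members over the count minimum, with 95% counting intervals as lines (many are narrower than the point) and dashed lines at 2-fold, adriamycin-resistant cells left and paclitaxel-resistant cells right. Open triangles mark genes at 3 counts or fewer in a library, drawn at their bound against 3 counts or the lower end of the interval. ATP6V1B1, ATP6V0A4 and ATP6V0D2 stand at -1.99, -2.59 and -3.04 in adriamycin-resistant cells and at -6.10, -5.55 and -6.26 in paclitaxel-resistant cells, and PDE1C stands at 4.36 in paclitaxel-resistant cells.

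FOXI1 and TFCP2L1 were the abundant transcription factors of the programme in parental cells, and both were lower in the resistant lines. FOXI1 was at 175 TPM in parental, 81.2 in adriamycin-resistant and 12.0 in paclitaxel-resistant cells, with 5887, 4131 and 487 counts. It was 2.10-fold lower in adriamycin-resistant cells (2.01 to 2.18) and 18.7-fold lower in paclitaxel-resistant cells (17.1 to 20.6). TFCP2L1 was at 93.7, 30.0 and 7.99 TPM, with 12463, 6070 and 1305 counts. It was 3.02-fold lower in adriamycin-resistant cells (2.93 to 3.12) and 14.8-fold lower in paclitaxel-resistant cells (13.96 to 15.7). The order of the lines was the same as for ATP6V1B1, ATP6V0A4 and ATP6V0D2, and in each resistant line those 3 subunits were further below parental cells than both factors. DMRT2, a factor of intercalated cells, had 15, 0 and 14 counts. Against 3 counts, its level in adriamycin-resistant cells was at least 7.36-fold lower than in parental cells. ASCL3, a factor of ionocytes, had 0 counts in all 3 libraries.

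The transporters and enzymes that define a mature intercalated cell were near the limit of detection in every line. The name intercalated-cell programme therefore rests here on the B1, a4 and d2 pump isoforms, FOXI1 and TFCP2L1, and not on the anion exchangers. SLC4A1, the basolateral chloride-bicarbonate exchanger of acid-secreting cells, had 0 counts in parental, 6 in adriamycin-resistant and 0 in paclitaxel-resistant cells. SLC4A9 had 0, 7 and 8 counts, and SLC26A4, which encodes pendrin of the base-secreting cells, 12, 10 and 11. BSND, a subunit of chloride channels, had 14, 4 and 0 counts, 5.00-fold lower in adriamycin-resistant cells (1.62 to 21.5) and, against 3 counts, at least 7.22-fold lower in paclitaxel-resistant cells. CA2, the cytosolic carbonic anhydrase that supplies protons to the pump, had 53, 65 and 26 counts and was 3.14-fold lower in paclitaxel-resistant cells (1.94 to 5.26). Of a further list of 20 intercalated-cell and ionocyte genes, 12 were under 10 counts in parental, 10 in adriamycin-resistant and 7 in paclitaxel-resistant cells, and RHCG, STAP1 and FOXI2 had 0 counts in all.

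The 3 surface and signalling genes did not move one way. KIT, a receptor tyrosine kinase, had 65 counts in parental, 3 in adriamycin-resistant and 0 in paclitaxel-resistant cells, which is 30.4-fold lower in adriamycin-resistant cells, with an interval from 10.4 to 158.6, and, against 3 counts, at least 33.5-fold lower in paclitaxel-resistant cells. PDE1C, a calmodulin-dependent phosphodiesterase, had 81, 118 and 2572 counts. It was 20.5-fold higher in paclitaxel-resistant cells (16.5 to 25.9) and within counting error of parental cells in adriamycin-resistant cells, and of the members over the minimum it alone was at least 2-fold above parental cells in either line on the TMM-scaled counts, whereas ATP6V1G1 joined it in paclitaxel-resistant cells from deposited TPM, at 1.08 with log2(TPM + 1). HEPACAM2, an adhesion molecule, had 8, 0 and 20 counts. Of the 12 genes, 8 passed the minimum in adriamycin-resistant cells, where 5 lay at least 2-fold below parental cells and 0 above, beside 11.4% and 10.9% of all genes. In paclitaxel-resistant cells 9 passed, with 5 lower and 1 higher, beside 13.5% and 20.5% of all genes. These contrasts chose the members too. The median log2 fold change was -1.33 in adriamycin-resistant cells and -1.65 in paclitaxel-resistant cells, beside 0.02 and 0.07 over all genes, and was no different with the genes at 3 counts or fewer set to their bounds.

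**Figure D4:**
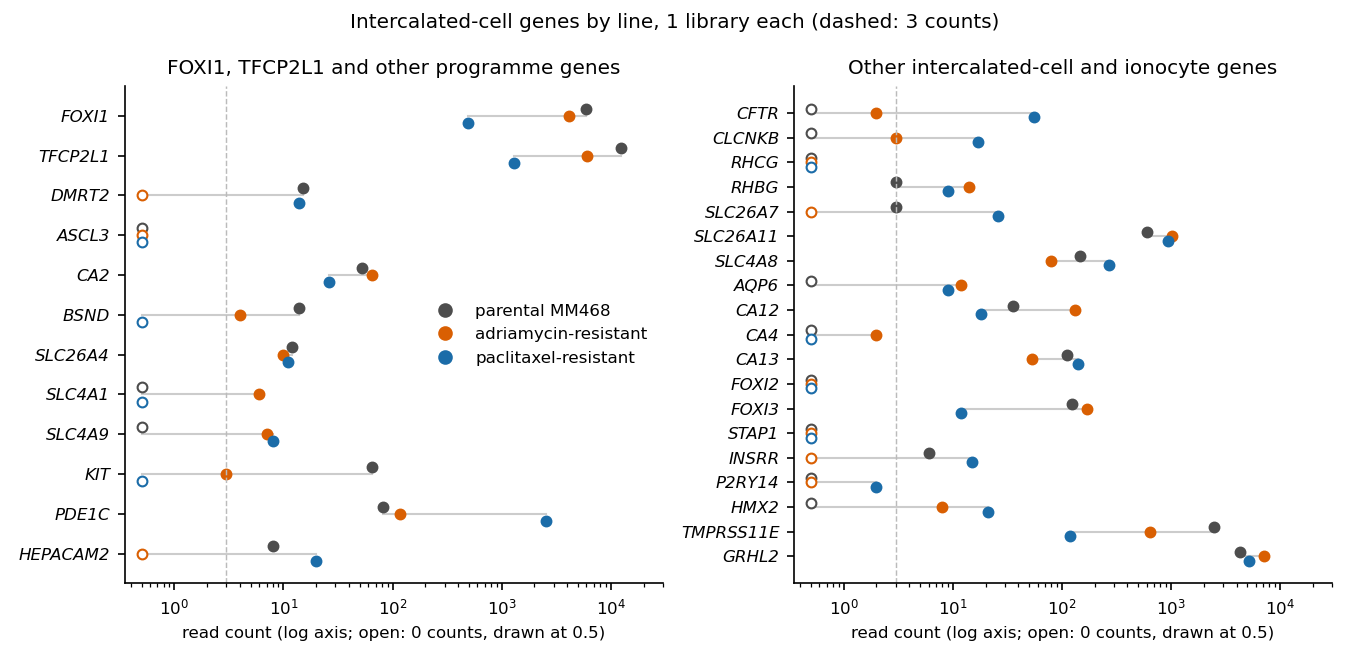
Read counts of the 12 programme genes (left) and 19 other intercalated-cell and ionocyte genes (right) on a log axis, 1 point per library, with open points at 0 counts drawn at 0.5 and a dashed line at 3 counts. FOXI1 lies between 487 and 5887 and TFCP2L1 between 1305 and 12463, PDE1C reaches 2572 in paclitaxel-resistant cells, and the other 9 programme genes lie between 0 and 65.

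Promoter sequence, which the choice of members did not use, was read from RefSeq windows of build GRCh38.p14 that run from 250 bases before to 50 bases after each start. Of the 37 members, 28 had a window, in 44 windows in all, and ATP6V0D2 was not among them. The forkhead core TGTTTA was searched on both strands, since FOXI1 is a forkhead factor, as was the E-box CACGTG, the centre of the element that TFEB and its relatives bind in lysosomal genes. The forkhead core stood in the windows of ATP6V1B1, ATP6V1G3 and ASCL3, in 3 of the 44 member windows and in 12.3% of all 35116 windows. The E-box stood in those of ATP6V0B, ATP6V0D1, ATP6V0E2, ATP6V1G1, DMRT2 and HEPACAM2, in 7 of the 44 member windows and in 7.26% of all windows. Neither motif overlaps the other in these windows, and a match is a description of letters, not a bound site. The 250 bases before the start are given for ATP6V1B1, ATP6V0A4, FOXI1 and TFCP2L1, which were at least 2-fold lower in both resistant lines, and for the 2 ubiquitous V0 subunits with the lowest fold changes, 5′ to 3′ on the strand of the gene, with the motifs in capitals. ATP6V0A4 has 2 windows, of which 1 is given.
ATP6V1B1, chr2:70935650-70935899, plus strand: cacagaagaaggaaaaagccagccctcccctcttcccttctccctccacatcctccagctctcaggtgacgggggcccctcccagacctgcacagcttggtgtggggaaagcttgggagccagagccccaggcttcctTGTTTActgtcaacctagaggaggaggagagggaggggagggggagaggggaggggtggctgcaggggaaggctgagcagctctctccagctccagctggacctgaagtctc
ATP6V0A4, chr7:138798197-138798446, minus strand: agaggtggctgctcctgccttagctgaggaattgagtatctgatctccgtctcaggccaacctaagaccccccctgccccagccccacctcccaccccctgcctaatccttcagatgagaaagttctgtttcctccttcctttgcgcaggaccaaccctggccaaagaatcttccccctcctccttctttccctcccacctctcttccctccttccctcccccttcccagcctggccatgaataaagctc
FOXI1, chr5:170105647-170105896, plus strand: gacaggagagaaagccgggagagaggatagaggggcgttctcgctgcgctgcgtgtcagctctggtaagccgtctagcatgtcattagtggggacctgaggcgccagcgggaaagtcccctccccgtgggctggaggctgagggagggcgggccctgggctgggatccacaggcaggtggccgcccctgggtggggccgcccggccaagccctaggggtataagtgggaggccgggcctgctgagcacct
TFCP2L1, chr2:121285203-121285452, minus strand: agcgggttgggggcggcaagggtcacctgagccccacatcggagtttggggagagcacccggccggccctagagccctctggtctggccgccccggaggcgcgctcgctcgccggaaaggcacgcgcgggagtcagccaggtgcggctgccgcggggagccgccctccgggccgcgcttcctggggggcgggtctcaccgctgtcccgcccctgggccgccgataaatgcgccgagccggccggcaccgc
ATP6V0B, chr1:43974710-43974959, plus strand: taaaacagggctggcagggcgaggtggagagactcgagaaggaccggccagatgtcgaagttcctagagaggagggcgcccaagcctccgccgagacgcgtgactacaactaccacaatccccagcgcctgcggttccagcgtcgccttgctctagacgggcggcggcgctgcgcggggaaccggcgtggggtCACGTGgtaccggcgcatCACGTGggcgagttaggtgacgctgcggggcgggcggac
ATP6V0D1, chr16:67481158-67481407, minus strand: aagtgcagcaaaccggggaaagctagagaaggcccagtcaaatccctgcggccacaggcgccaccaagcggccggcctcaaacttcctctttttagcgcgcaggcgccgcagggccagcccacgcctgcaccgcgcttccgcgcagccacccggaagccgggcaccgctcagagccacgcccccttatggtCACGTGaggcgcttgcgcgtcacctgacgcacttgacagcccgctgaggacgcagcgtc

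The forkhead core of ATP6V1B1 starts 112 bases before the RefSeq start of its window. The windows of ATP6V0A4, FOXI1 and TFCP2L1 hold neither set of letters. ATP6V0B holds E-boxes 57 and 39 bases before its start, and ATP6V0D1 holds 1 at 59 bases. ATP6V1G1 holds an E-box at 58 bases. Whether either motif has a part in the differences between the lines was not tested. In GENCODE v29 on GRCh38, ATP6V1B1 lies on chromosome 2 from 70935868 to 70965431 and is overlapped by VAX2 on the same strand and, among others, by ATP6V1B1-AS1 on the opposite strand. ATP6V0A4 lies on chromosome 7 from 138706294 to 138799560 and is overlapped by TMEM213 on the opposite strand. RefSeq and GENCODE starts differ for some of these genes, and the ATP6V0A4 window given above lies within that span. FOXI1, on chromosome 5 from 170105897 to 170109725, and TFCP2L1, on chromosome 2 from 121216587 to 121285207, overlap no other gene there.

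Adriamycin-resistant cells held more of the restricted pump genes and of both factors than paclitaxel-resistant cells. ATP6V1B1 was 17.7-fold higher in adriamycin-resistant cells than in paclitaxel-resistant cells (15.1 to 20.7), ATP6V0D2 9.56-fold (7.24 to 12.9), ATP6V0A4 7.97-fold (6.71 to 9.55) and ATP6V1C2 3.28-fold (2.79 to 3.89). Of 6 restricted subunits over the minimum, 4 lay at least 2-fold higher in adriamycin-resistant cells and 0 lower. Of 19327 genes, 14% lay higher, 19.4% lower and 33.4% on either side. FOXI1 was 9.14-fold higher (8.32 to 10.1) and TFCP2L1 5.01-fold higher (4.72 to 5.33) in adriamycin-resistant cells. PDE1C went the other way and was 20.2-fold lower in adriamycin-resistant cells than in paclitaxel-resistant cells (16.8 to 24.5). Of 7 programme genes over the minimum, 3 were at least 2-fold higher in adriamycin-resistant cells, namely FOXI1, TFCP2L1 and CA2, and 3 lower, namely DMRT2, PDE1C and HEPACAM2, of which DMRT2 and HEPACAM2 had 0 counts in adriamycin-resistant cells.

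The ubiquitous genes separated the resistant lines less. ATP6V1F was 2.19-fold higher (2.07 to 2.32) and ATP6V1G1 2.01-fold lower (1.90 to 2.12) in adriamycin-resistant cells than in paclitaxel-resistant cells, and the other 14 were within 2-fold. With library size only ATP6V1F came to 0.89 on the log2 scale, and with DESeq2 size factors ATP6V1G1 came to -0.99, both inside 2-fold. The median log2 difference, adriamycin-resistant cells against paclitaxel-resistant cells, was 0.21 by TMM, -0.04 with library size only and -0.15 from log2(TPM + 1), and so has no settled direction. TCIRG1 and ATP6V0E2 were 1.94-fold and 1.90-fold higher in adriamycin-resistant cells.

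Genes that assemble or regulate the pump, and genes of the lysosome, where the ubiquitous pump works, were read as neighbours of the pathway. Of 13 assembly and regulator genes, 11 passed the minimum and 0 were at least 2-fold different from parental cells in either line. The lowest were OXR1 at -0.61 in adriamycin-resistant cells and CCDC115 at -0.70 in paclitaxel-resistant cells on the log2 scale, and MEAK7 was the highest in both, at 0.37 and 0.75. ROGDI, a component of the assembly complex, was listed at 0 counts in all 3 libraries. Of 19 lysosome genes, 1 lay at least 2-fold above and 1 below parental cells in adriamycin-resistant cells, and 0 above and 2 below in paclitaxel-resistant cells. TFEB, a transcription factor of lysosomal genes, had 561 counts in parental, 130 in adriamycin-resistant and 57 in paclitaxel-resistant cells, 6.34-fold lower in adriamycin-resistant cells (5.24 to 7.75) and 15.2-fold lower in paclitaxel-resistant cells (11.6 to 20.4). Its relative TFE3 had 1279, 2491 and 3065 counts, 1.32-fold and 1.55-fold higher. CTSB, a lysosomal protease, was 4.35-fold higher in adriamycin-resistant cells with 36529 counts against 5705, and CTSD, another, was 3.41-fold lower in paclitaxel-resistant cells. LAMP1, a lysosomal membrane protein, was within 1.12-fold of parental cells in both lines. The median log2 fold change of the lysosome genes was 0.03 in adriamycin-resistant cells and -0.35 in paclitaxel-resistant cells.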

How the data were processed

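RNA of each line was sequenced as 1 library and analysed by a service company. The labels name TruSeq Stranded mRNA libraries, and the labels and the paper name different extraction kits. The submitters' processing notes list Trimmomatic 0.39, HISAT2 2.2.1, StringTie 2.2.1 and GRCh38, without role or strand setting. The authors deposited read counts per gene, not normalized, in 1 table beside the FPKM and TPM values they computed.

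The members and gene lists were chosen with earlier results of these data known. Fold changes came from the counts in edgeR 4.0.16 (R 4.3.3), with TMM over the 2 libraries compared, a minimum of 10 counts in 1 of them and a prior count of 0.125. A gene was called at a change of at least 2-fold. The quasi-likelihood test needs replicates, so no p-value is given. Intervals are 95% exact binomial ones for a pair of counts. A fold against 0 counts is a bound against 3 counts. Intervals and bounds cover counting error only. Levels are compared between genes as TPM.

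As alternatives, size factors of DESeq2 1.42.0, library size only and TMM over all 3 libraries replaced the scaling. The prior count was also set to 2, the minimum removed or set to 100, and the threshold set to 4-fold. Deposited TPM and FPKM were used with a pseudocount. Members of 100 or more counts that differed at least 2-fold, and transcription factors, are named with their values, and other members by values or range. In related lists the largest change in each direction among genes with 100 or more counts in a library is named, and any other gene of those lists was chosen after its values were seen. Some genes of these lists are counted with their list and are not reported here by name. The scaling was tested on simulated data. Figures were drawn with matplotlib 3.10.9.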

Additional observations from a re-analysis of the deposited data

Results flagged for a closer look

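ATP6V1B1-AS1, an antisense RNA gene that overlaps ATP6V1B1 and is not a member, had 10 counts in adriamycin-resistant cells, more than the 3 counts compatible with none, and 0 counts in parental and paclitaxel-resistant cells. It had no count in parental cells, where ATP6V1B1 itself had 7591. Whether reads of ATP6V1B1 were counted on the antisense gene was not tested.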

How the results depend on the processing

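No paired analysis was possible because each line has a single library. Single libraries limit every result, and counts near 0 limit DMRT2, BSND, KIT and HEPACAM2. The number of restricted subunits at least 2-fold different stayed within 1.5 times of 3, 4 and 4 under each alternative. Of the 5 programme genes lower in adriamycin-resistant cells, a minimum of 100 counts, TPM with a pseudocount of 1 and FPKM each left 2, and a 4-fold threshold left 3. Of the 5 lower in paclitaxel-resistant cells, the minimum of 100 and the same TPM and FPKM scales each left 2. Of the programme genes higher in adriamycin-resistant cells than in paclitaxel-resistant cells, 3 became 5 with TMM over all 3 libraries and 6 with no minimum. By construction, a minimum of 100 tests fewer genes and a pseudocount shrinks low genes. The alternative that sets genes at 3 counts or fewer to their bounds, added after seeing the data, left the counts of restricted subunits and programme genes at 3, 4, 4 and 5, 5, 3.

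The median of the ubiquitous genes in paclitaxel-resistant cells, -0.26, became -0.036 with library size only, 0.0298 from TPM with a pseudocount of 1, 0.0308 with 0.1 and -0.0487 from FPKM. Against paclitaxel-resistant cells, the 0.21 of adriamycin-resistant cells became -0.0355 with library size only, 0.1351 with a minimum of 100 counts, -0.1494 and -0.1513 from TPM with a pseudocount of 1 and of 0.1, and -0.0103 from FPKM. Of 846 values of single members under the alternatives, 595 lay within the counting interval, 251 outside it, and 40 had the opposite sign, none of them of a gene at least 2-fold different in that comparison.

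Over all genes in adriamycin-resistant cells, 1963 were higher and 2044 lower than in parental cells. They became 4337 and 3751 with no minimum, 800 and 1048 with a minimum of 100, 875 and 714 at 4-fold, 707 and 1085 from TPM with a pseudocount of 1, and 460 and 663 from FPKM. In paclitaxel-resistant cells, 3909 higher genes became 7035 with no minimum, 1702 with a minimum of 100, 1991 at 4-fold and 1374 from FPKM. There, 2585 lower genes became 1569, 873 and 882 in the last 3 settings, 1055 from TPM with a pseudocount of 1 and 1580 with 0.1. Between adriamycin-resistant and paclitaxel-resistant cells, 2698 higher and 3757 lower genes became 4354 and 6520 with no minimum, 1601 and 1737 with a minimum of 100, 838 and 1752 at 4-fold and 781 and 1334 from FPKM. From TPM with a pseudocount of 1 and of 0.1, 871 and 1446 were higher and 2850 and 5192 lower. With library size only the share of higher genes among those 2-fold different went from 60.2% to 71.2% in paclitaxel-resistant cells and from 41.8% to 28.6% in adriamycin-resistant cells against paclitaxel-resistant cells. From TPM with a pseudocount of 0.1 these shares were 75.5% and 21.8%, and with 1 they were 71.2% and 23.4%.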

Other observations

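Acid-base transporters of the plasma membrane other than the V-ATPase were read as a further list. SLC9A3, a sodium-proton exchanger of kidney and gut epithelium, had 85 counts in parental, 508 in adriamycin-resistant and 1075 in paclitaxel-resistant cells, 4.06-fold and 8.16-fold higher than parental. SLC9A2, a related exchanger, had 6, 143 and 42 counts. SLC16A1, a monocarboxylate transporter that exports lactate with protons, had 1829, 601 and 4251 counts, 4.48-fold lower in adriamycin-resistant cells and 1.50-fold higher in paclitaxel-resistant cells. CA9, a carbonic anhydrase at the cell surface, had 235, 372 and 93 counts and was 3.91-fold lower in paclitaxel-resistant cells. Of the 13 genes of this list, 2 were at least 2-fold higher and 1 lower in adriamycin-resistant cells, beside 10.9% and 11.4% of all genes, and 4 higher and 1 lower in paclitaxel-resistant cells, beside 20.5% and 13.5%. Between the resistant lines, 2 of 11 were higher and 4 lower in adriamycin-resistant cells, with a median log2 difference of -0.05. SLC9A2, whose parental level rests on 6 counts, is among the higher genes in both lines.

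Genes outside the member list that are named with intercalated cells and ionocytes did not move one way. TMPRSS11E, a transmembrane serine protease, had 2467, 642 and 118 counts, in the same order of lines as FOXI1, 5.66-fold and 32.3-fold lower than parental. FOXI3, a relative of FOXI1, had 123, 171 and 12 counts and was 15.7-fold lower in paclitaxel-resistant cells. CFTR, the chloride channel of ionocytes, had 0, 2 and 56 counts, at least 12.1-fold higher in paclitaxel-resistant cells. CA12 had 36, 131 and 18 counts, 2.47-fold higher in adriamycin-resistant cells and 3.08-fold lower in paclitaxel-resistant cells. Of the 10 markers of principal cells, the sodium-transporting neighbours of intercalated cells, AQP2, AVPR2 and FXYD4 had 0 counts in all 3 libraries. SCNN1A, an epithelial sodium channel subunit that many epithelia express, had 4887, 2155 and 3788 counts, AQP3, a water channel, had 748, 1099 and 1779, and ELF5, a factor also of the mammary luminal lineage, had 88, 178 and 20.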
